A study of Mus musculus with 2 samples.

Results

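Lung fibroblasts and mural cells, which are pericytes and smooth muscle cells wrapped around vessels and airways, were followed here as 316 of the 29837 single cells that passed quality filters. A cell was counted among them when it had at least 500 gene UMIs (unique molecular identifiers, 1 per captured RNA molecule), at least 200 genes and at most 20% mitochondrial UMIs. It also had to show at least 3 of the 9 genes Col1a1, Col1a2, Col3a1, Dcn, Pdgfra, Pdgfrb, Tcf21, Notch3 and Myh11, and 0 UMIs of the 6 genes Cd3e, Cd79a, Csf1r, Mertk, Ptprb and Epcam, which mark T cells, B cells, monocytes, macrophages, endothelium and epithelium. These 15 genes chose the cells, and their levels are therefore given as a description only.

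The cells came from lungs of adult C57BL6/J mice aged 5 to 8 weeks, dissociated with collagenase IV, sorted as live cells and profiled with 10x Genomics 3′ v3 chemistry. The library labelled GFI1 KO came from a mouse with germline loss of the transcriptional repressor GFI1, and the library labelled GFI1 WT from a wild-type mouse. The labels name no treatment. With 1 library per genotype there is no spread between mice and no test, and genotype, mouse and library cannot be told apart. Intervals are 95% intervals that cover counting error only.

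Fibroblasts build the interstitial matrix of the lung from collagens, elastic fibres and proteoglycans. Alveolar fibroblasts lie in the gas-exchange walls, adventitial fibroblasts form the cuffs around bronchi and larger vessels, and peribronchial fibroblasts and myofibroblasts add contractile genes. Pericytes share a basement membrane with the endothelium and depend on PDGF and Notch signals from it.

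Gfi1 (ENSMUSG00000029275) gave 0 UMIs in the fibroblasts of the GFI1 KO library and 1 UMI in those of the GFI1 WT library, and its paralog Gfi1b gave 0 UMIs in both. These counts are too low to check the labels, so libraries are named by their labels. The GFI1 KO library held 10700 called cells with 116825535 gene UMIs, of which 10495 cells passed the filters. The GFI1 WT library held 19515 called cells with 162599284 gene UMIs, of which 19342 cells passed. The median depth of the fibroblasts and mural cells was 7831 UMIs per cell in the first library and 6420.5 in the other, against 11076 and 6217 over all cells. The libraries shared 74 cell barcodes, and no barcode was a fibroblast or mural cell in both.

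These cells were scarce under the GFI1 KO label. They were 18 of 10495 cells (0.172%, 0.102 to 0.271) there and 298 of 19342 cells (1.54%, 1.37 to 1.72) under the GFI1 WT label, and the intervals do not overlap. Endothelial cells, chosen by Ptprb and other vessel genes, differed the same way, with 65 cells (0.619%) and 1392 cells (7.20%). Epithelial cells, chosen by Epcam and other surface-lining genes, were 18 cells (0.172%, 0.102 to 0.271) and 51 cells (0.264%, 0.196 to 0.347), and these intervals overlap. The shares are of all live cells recovered, so a loss of 1 cell type in dissociation and an excess of another cannot be told apart from a difference in the tissue.

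**Figure D1:**
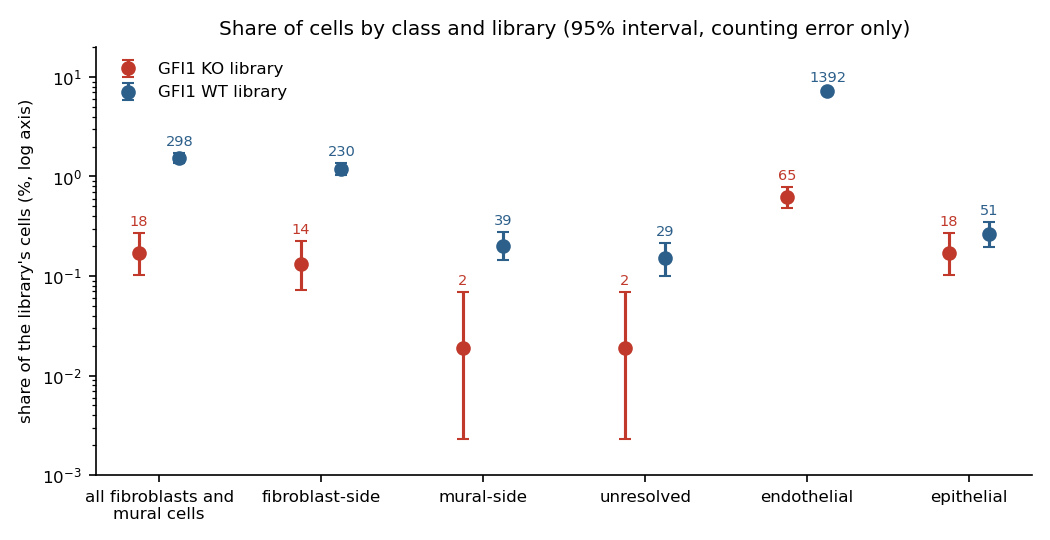
Share of each library's cells (percent, log axis) in each class, with the 95% Clopper-Pearson interval and the number of cells above each point. The GFI1 KO points lie below the GFI1 WT points in every class drawn, although the intervals of epithelial cells overlap. The 18 GFI1 KO fibroblasts and mural cells compare with 298 in the GFI1 WT library.

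Within the class, a cell was called fibroblast-side when it showed more of Pdgfra, Tcf21 and Dcn than of Notch3, Pdgfrb and Myh11, mural-side when it showed fewer, and unresolved when the numbers were equal. Under the GFI1 WT label 230 cells (77.2%, 72.0 to 81.8) were fibroblast-side, 39 (13.1%, 9.47 to 17.5) mural-side and 29 (9.73%, 6.61 to 13.7) unresolved. Under the GFI1 KO label the numbers were 14 (77.8%, 52.4 to 93.6), 2 and 2. The shares of the libraries lay within each other's intervals, which are wide for the 18 GFI1 KO cells.

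The mural-side number depended on the demand for 0 UMIs of Ptprb, a receptor phosphatase of endothelium. In the GFI1 WT library 490 cells showed at least 3 of the 9 genes, 137 of them mural-side, and the 6 genes of other lineages turned away 192 cells, 98 of them mural-side. Ptprb was seen in 117 of the cells turned away, and 69 had Ptprb and none of the other 5 genes. Of these 69 cells, 52 were mural-side, and their summed level of the pericyte gene Cox4i2 was 1599 CPM beside 1391 CPM of the endothelial gene Cldn5. In the GFI1 KO library 19 cells showed at least 3 of the 9 genes and 1 was turned away, for Cd3e. Whether the cells with RNA of both types were doublets, pericytes with endothelial RNA or another state was not tested.

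At the threshold itself, the 20 GFI1 WT cells with exactly 3 of the 9 genes had Dcn at 1101 CPM (UMIs of the gene per 1000000 UMIs, without ribosomal, mitochondrial and Gm- genes), Sparc at 1276 CPM and the leukocyte gene Ptprc in 1 of 20 cells. The 14 cells with exactly 2 genes, just outside, had Dcn at 708 CPM, Sparc at 537 CPM and Ptprc in 28.6% of cells. The 118 cells with 1 gene had Ptprc in 89.8% of cells. In the GFI1 KO library the order was the other way. Its 4 cells with exactly 2 genes had Dcn at 5947 CPM, Sparc at 1574 CPM and Ptprc in none, and its 3 cells with exactly 3 genes had Dcn at 636 CPM, Sparc at 636 CPM and Ptprc in none. The 4 cells just outside are many beside the 18 inside, and their median depth was 1870 UMIs.

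The label fitted the data for genes that the rule did not use. Sparc, a collagen-binding glycoprotein, was at 4386 CPM in GFI1 WT fibroblast-side cells and 2518 CPM in mural-side cells, against 838 CPM in endothelial cells. Bgn, a small proteoglycan of the matrix, was at 1643 CPM in fibroblast-side and 1242 CPM in mural-side cells and at 82.6 CPM in endothelial cells. Markers of other cell types were also counted. The summed level of 5 leukocyte genes was 207 CPM in GFI1 WT fibroblast-side cells against 5432 CPM in all cells outside the class, with Ptprc, Coro1a, Laptm5, Cd52 and Srgn all detected. The summed level of 9 endothelial genes was 56.1 CPM against 15764 CPM in endothelial cells, with Calcrl the most counted and Ptprb at 0 by the rule. The 10 genes of monocytes and macrophages summed to 234 CPM in GFI1 WT and 503 CPM in GFI1 KO fibroblast-side cells against 16912 and 30889 CPM outside the class, led by Lyz2, with Csf1r and Mertk at 0 by the rule. The 8 genes of T and NK cells summed to 183 CPM in GFI1 WT cells, led by Gzma, and to 0 in GFI1 KO cells. The 9 epithelial genes summed to 178 and 145 CPM, led by Scgb1a1 and Sftpc, with Epcam at 0 by the rule. The 6 Schwann cell genes summed to 9.46 CPM and to 0. On the mural side 1 GFI1 WT cell held 98.1% of the neutrophil list's UMIs, which summed to 1207 CPM. In the 2 GFI1 KO mural-side cells the neutrophil list summed to 1839 CPM against 3732 CPM in all GFI1 KO cells outside the class, and the monocyte and macrophage list to 919 CPM. The endothelial list summed there to 575 CPM, and 1 of these 2 cells showed at least 3 endothelial markers.

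The antibody tags, which the rule did not use, also set the cells apart from leukocytes. The CD45 tag had a median of 8.5 UMIs in the 18 GFI1 KO cells and 6 UMIs in the 298 GFI1 WT cells, against 653 and 490 in B cells. The CD117 tag, which was high on endothelial cells, had medians of 3.5 and 7 UMIs against 119 and 144.5 in endothelial cells. With 30 UMIs as a limit, 2 GFI1 KO cells and 16 GFI1 WT cells carried the CD45 tag, up to 1244 and 873 UMIs.

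The fibroblast-side cells were rich in matrix RNA and close to each other in the 2 libraries for their most counted genes. Gsn, which severs actin filaments, was at 28807 CPM in the 14 GFI1 KO cells and 29056 CPM in the 230 GFI1 WT cells. Mgp, an inhibitor of calcification, was at 15755 and 15786 CPM. Dcn, a proteoglycan that binds collagen and was part of the rule, was at 13185 and 13556 CPM. Each pair differed by less than its counting interval, with ratios of 0.991 (0.952 to 1.03) for Gsn, 0.998 (0.945 to 1.05) for Mgp and 0.973 (0.916 to 1.03) for Dcn. For Mgp 1 of the 14 GFI1 KO cells held 42.9% of the UMIs. Without the top cell of each library its levels were 9790 and 14876 CPM, and its medians over cells were 41.0 and 115 UMIs per 10000, so the like sums of Mgp rest on that cell.

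**Figure D2:**
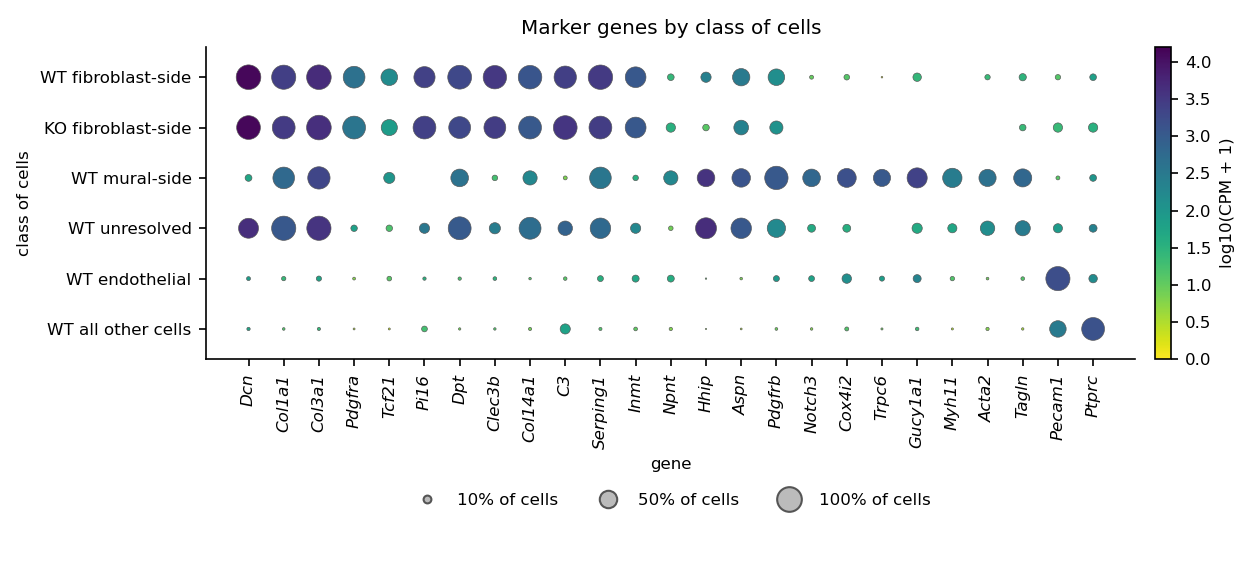
Marker genes (x axis) in 6 classes of cells (y axis), with the summed level as colour (log10 of CPM + 1) and the share of cells with a UMI as dot size; a missing dot is 0 UMIs. Fibroblast-side cells of both libraries share Dcn, Pi16, Clec3b, C3 and Inmt, and GFI1 WT mural-side cells carry Pdgfrb, Cox4i2, Trpc6 and Gucy1a1, with Pecam1 and Ptprc low in both.

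Genes of the adventitial list dominated. The list (Pi16, Dpt, Col14a1, Ly6a, Serpinf1, Clec3b, Adh7, Cd34, Dcn, Igfbp4, Ccl11 and Il33) summed to 28962 CPM in GFI1 WT and 28371 CPM in GFI1 KO fibroblast-side cells. Dcn, which the rule used, gave 13556 and 13185 CPM of these sums, so their size was partly set by the choice of cells. Pi16, a secreted protein that marks perivascular fibroblasts, was at 2412 and 2559 CPM, and was seen in 170 of 230 GFI1 WT cells. Clec3b, which encodes the plasminogen-binding tetranectin, was at 3314 and 2872 CPM. The alveolar list, with Tcf21, Npnt, Inmt and Wnt2 among its 12 genes, summed to 3575 and 3609 CPM. Its members differed widely in level. In GFI1 WT fibroblast-side cells Gpc3 was at 1002 CPM. Npnt, a ligand of integrin alpha8 in the alveolar wall, had 24.3 CPM in these cells. Wnt2, a growth signal to the epithelium, had 18.9 CPM. Npnt was also raised in the pericyte-like cluster described below, and how specific the listed genes are to alveolar fibroblasts was not tested. With Dcn and Tcf21 left out of the lists because the rule used them, 221 of 230 GFI1 WT cells (96.1%) and 12 of 14 GFI1 KO cells (85.7%) showed more adventitial than alveolar markers, with medians of 9 and 9.5 against 4 and 4 of 11 markers.

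The adventitial and alveolar markers did not divide the cells cleanly. Inmt, a methyltransferase counted as an alveolar marker, was at 1149 CPM in GFI1 WT and 1129 CPM in GFI1 KO fibroblast-side cells. Pi16 and Inmt were seen together in 135 of the 230 GFI1 WT cells, Pi16 alone in 35, Inmt alone in 27 and neither in 33. Under the GFI1 KO label the numbers were 10, 2, 0 and 2 of 14 cells. Tcf21, a transcription factor of lung fibroblasts, and Pdgfra, the receptor for PDGF-A, were together in 88 GFI1 WT cells, with Tcf21 alone in 17 and Pdgfra alone in 91. At this depth a missing UMI does not show that a gene was off.

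Shares of cells with a UMI were also compared after each cell was thinned to 1000 UMIs, which left out 6 GFI1 WT fibroblast-side cells. Col3a1 was then seen in 91.1% of GFI1 WT fibroblast-side cells (99.6% unthinned) and 0.302% of B cells (0.670% unthinned), whose median depth was 4308 UMIs. Pi16 was seen in 54.0% against 0.268% (73.9% and 0.972% unthinned). Scgb1a1, a club cell gene, was seen in 16.1% of fibroblast-side cells and 14.3% of B cells (57.0% and 45.4% unthinned), so that a share of this size was not particular to fibroblasts.

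Collagen genes of the fibril were partly in the rule, and the values of those genes are a description. Col3a1, the chain of type III collagen, was at 4739 CPM in GFI1 WT and 4291 CPM in GFI1 KO fibroblast-side cells. Col1a2 was at 3898 and 4034 CPM. Outside the rule, Col5a2, a chain of type V collagen, was at 565 CPM in GFI1 WT and 682 CPM in GFI1 KO cells (ratio of GFI1 KO over GFI1 WT 1.21, 0.915 to 1.57), and Col5a1 at 356 and 402 CPM (1.13, 0.782 to 1.58). Over the 230 GFI1 WT cells Col3a1 ranged from 0 to 318 UMIs per 10000 with a median of 38.9, and over the 14 GFI1 KO cells from 5.90 to 128 with a median of 32.5. The ranges overlap for the whole GFI1 KO group.

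Elastic-fibre genes summed to 10453 CPM in GFI1 WT and 12481 CPM in GFI1 KO fibroblast-side cells. Eln, the elastin monomer, was at 1557 and 2481 CPM, and Fbn1, the microfibril backbone, at 1190 and 2425 CPM. A few cells carried these GFI1 KO levels, with 39.6% of the Eln UMIs in 1 of the 14 cells and 37.8% of the Fbn1 UMIs in another. Without the cell in question the levels were 1619 CPM for Eln and 1769 CPM for Fbn1. Mfap5, a microfibril-associated protein, was at 1604 and 2469 CPM. Fbln1, a fibulin, was at 1789 CPM in GFI1 WT fibroblast-side cells and 177 CPM in mural-side cells.

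Complement genes were part of the RNA of fibroblast-side cells. C3, the central complement protein, was at 2618 CPM in GFI1 WT and 3520 CPM in GFI1 KO cells, seen in 189 of 230 and 13 of 14 cells. Serping1, the C1 inhibitor, was at 3009 and 2872 CPM. The 13 genes together summed to 9509 CPM in GFI1 WT and 9241 CPM in GFI1 KO fibroblast-side cells, against 544 CPM in GFI1 WT mural-side and 110 CPM in endothelial cells.

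Signals to leukocytes and stem cells were part of the same cells. Il33, an alarmin for group 2 innate lymphoid cells, was at 278 CPM in GFI1 WT and 413 CPM in GFI1 KO fibroblast-side cells. Ccl11, which attracts eosinophils, was at 341 and 425 CPM. Cxcl12, which holds CXCR4-bearing cells in place, was at 502 and 603 CPM. Each was at 0 or near it in mural-side cells, with 0 UMIs of Il33 and Ccl11 and 3 UMIs of Cxcl12 in 39 cells. Cxcl12 was as high in endothelial cells, at 510 CPM.

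Some signals and matrix genes were counted in the library mainly in these cells, which held 1.30% of the GFI1 WT library's UMIs and 0.110% of the GFI1 KO library's. They held 81.9% of all Ccl11 UMIs of the GFI1 WT library, 78.1% of Mmp3 (stromelysin), 77.0% of Lum (lumican), 75.8% of Ccl19 (a chemokine for CCR7-bearing cells), 61.5% of Fgf10 (a growth factor for epithelium) and 57.7% of Il33. By contrast they held 9.26% of Cxcl12 and 9.20% of Csf1, the macrophage growth factor, whose UMIs lay mainly in other cells. Dcn was 73.5% in these cells. Outside them it averaged 55.6 CPM over the other GFI1 WT cells and 1.41 CPM over the other GFI1 KO cells. The GFI1 WT remainder was not evenly spread. Of its 7444 Dcn UMIs, 1334 lay in 13 fibroblast-side cells turned away for Ptprb alone, at 11451 CPM. Fibroblast-side cells turned away by the rule are thus not in the shares given here.

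Mural-side cells carried pericyte and contractile genes. In the 39 GFI1 WT cells Pdgfrb, the receptor for PDGF-B and a gene of the rule, was at 1099 CPM and Notch3 at 647 CPM. Cox4i2, a lung-type cytochrome oxidase subunit, was at 1470 CPM in 23 of 39 cells. Trpc6, a cation channel, was at 1116 CPM in 19 cells. Gucy1a1, a subunit of the nitric oxide receptor, was at 2340 CPM in 26 cells. Rgs5, often used as a pericyte gene, had 0 UMIs in these cells and 1 UMI in fibroblast-side cells. The pericyte list summed to 9618 CPM in mural-side cells, 391 CPM in fibroblast-side cells and 870 CPM in endothelial cells.

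Smooth muscle genes were present at lower levels. Acta2, smooth muscle actin, was at 452 CPM in 19 of 39 mural-side cells, Tagln (transgelin) at 641 CPM in 21 cells and Myh11, the smooth muscle myosin heavy chain and a gene of the rule, at 280 CPM in 24 cells. Cnn1, a gene of mature smooth muscle, had 1 UMI and Pln, a regulator of the calcium pump, had 0. Cox4i2 and Acta2 were together in 7 cells, Cox4i2 alone in 16, Acta2 alone in 12 and neither in 4. Cox4i2 and Myh11 were together in 16 cells, Cox4i2 alone in 7, Myh11 alone in 8 and neither in 8. The overlap of pericyte and contractile genes thus depended on the pair, and these genes did not divide the mural side cleanly.

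The pericyte genes were counted mainly outside the chosen cells. The fibroblasts and mural cells held 15.2% of the GFI1 WT library's Trpc6 UMIs, 14.7% of its Gucy1a1 UMIs, 13.7% of its Cox4i2 UMIs and 10.0% of its Higd1b UMIs. Mural-side cells turned away for Ptprb are not in these shares, and levels of the mural side are therefore those of its cells free of Ptprb.

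The fibroblast side and the mural side of the GFI1 WT library were set against each other gene by gene. The groups were made from these same cells, so that the contrast is a description with no test. Of 8111 genes with at least 30 UMIs in the 2 sums, 1489 were at least 2-fold higher on the fibroblast side (18.4% of those tested) and 986 were at most 0.5-fold (12.2%). With a counting interval that also left out a ratio of 1, there were 893 higher genes (11.0%) and 875 lower genes (10.8%), and gene lists are counted by this stricter rule. The median log2 ratio of all genes tested was 0.047, with genes at 0 on 1 side set at their bound from 3 UMIs here and in the lists.

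The genes highest on the fibroblast side were ranked by the bound of the interval nearer to 1. Apart from Dcn of the rule, C3 led with 3874 UMIs against 1 UMI, a ratio of 458 (82.1 to 18077). Clec3b followed with a ratio of 193 (66.0 to 937), from 3 UMIs on the mural side. Mmp3, a protease of the matrix, had a ratio of 164 (29.5 to 6498) from 1 mural UMI, and Cd34, a sialomucin of progenitor and adventitial cells, 157 (28.2 to 6218), also from 1 UMI. Gpc3, a heparan sulphate proteoglycan, had a ratio of 87.6 (24.2 to 724). Ly6a, a surface antigen that endothelial cells also express at 2398 CPM, had a ratio of 52.7 (22.6 to 163). Cped1 and Fn1, which encodes fibronectin, followed with ratios of 121 and 77.0.

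The genes highest on the mural side were ranked in the same way. Trpc6 was at 0.676 CPM on the fibroblast side, from 1 UMI, against 1116 CPM. Adcy8, an adenylyl cyclase, was at 1.35 CPM against 1293 CPM, and Spp1, which encodes osteopontin, at 2.70 against 956 CPM. Kcnq5, a potassium channel, was at 33.1 against 4251 CPM, and Higd1b at 0.676 against 492 CPM. The remaining genes had 0 UMIs on the fibroblast side, and 3 UMIs over the class were set in place of 0. Lipg, an endothelial-type lipase, was then 206-fold higher on the mural side, Fam162b and Tmem178 144-fold, Vsnl1 127-fold and Myh11 of the rule 138-fold. The counting intervals reach less far, with an upper limit of 0.00612 for the ratio of Lipg, fibroblast over mural.

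**Figure D3:**
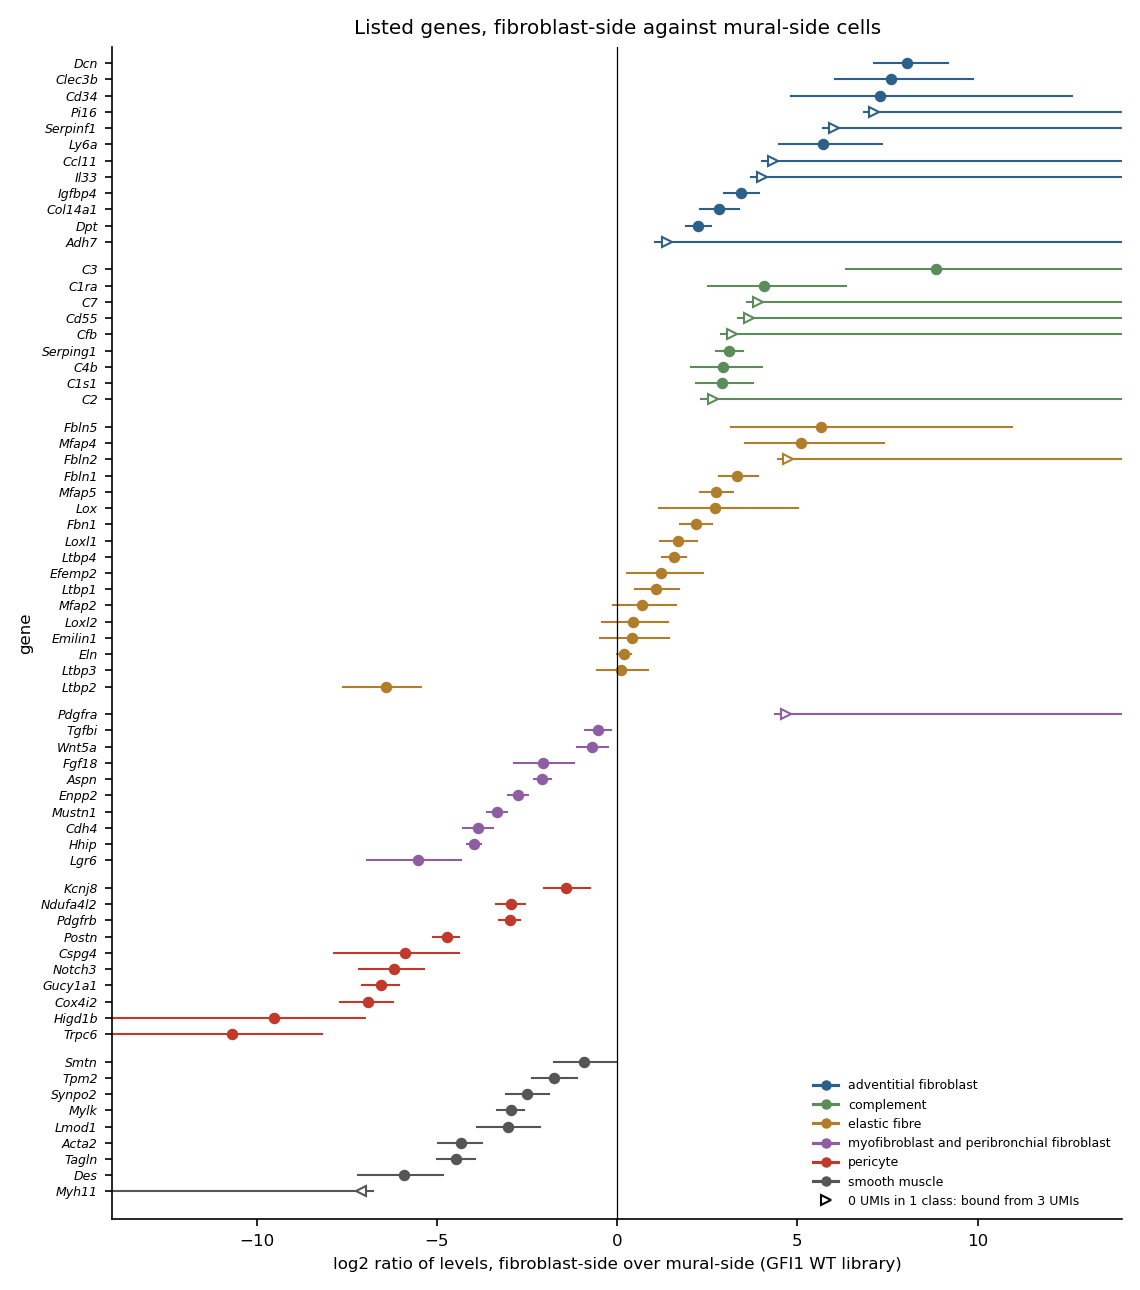
Log2 ratio of levels, fibroblast-side over mural-side, in the GFI1 WT library for tested genes of 6 lists, with 95% counting intervals; open triangles are bounds from 3 UMIs where a class had 0. The 12 adventitial genes and the complement genes drawn lie to the right of 0, and the 10 pericyte genes lie to the left, as do 8 of 9 smooth muscle genes past the 2-fold limit; Dcn, Pdgfra, Pdgfrb, Notch3 and Myh11 set the sides.

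Lists kept together to different degrees. All 12 adventitial genes, Dcn of the rule among them, were higher on the fibroblast side (median log2 ratio 5.02), as were all 10 complement genes tested (3.42). Of 17 elastic-fibre genes 11 were higher and 1 lower (1.56); the lower gene was Ltbp2, a latent TGF-beta binding protein, at 6.08 against 521 CPM. Of 17 matrix proteases and inhibitors 10 were higher and 4 lower (1.64). Of 11 lipid and retinoid genes 8 were higher and 1 lower (2.45), with Aldh1a3, a retinoic acid synthase, with 148 UMIs against 0.

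On the mural side, all 10 pericyte genes tested were higher there (median log2 ratio of fibroblast over mural -6.05), as were 8 of 9 smooth muscle genes (-3.02) and 11 of 15 contractile genes (-1.74). Pdgfrb and Notch3 of the pericyte list and Myh11 of the smooth muscle and contractile lists assigned cells to the mural side, so their direction was set by the split. Of 10 myofibroblast and peribronchial genes 7 were higher on the mural side and 1, Pdgfra of the rule, lower (-2.41). Hhip, which binds and blocks hedgehog ligands, was at 3811 CPM on the mural side and 242 CPM on the fibroblast side. Aspn, a proteoglycan that binds TGF-beta, was at 1264 and 301 CPM. The list is one of fibroblasts by name, and 20 of the 39 mural-side cells showed Hhip.

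Of 6 fibrillar collagen genes 4 were higher on the fibroblast side and none lower (median log2 ratio 1.34). Col1a1, Col1a2 and Col3a1 among these 4 had chosen the cells of the class. Of 13 other collagen genes 5 were higher on each side (0.65). Of 11 basement membrane genes 4 were higher on the mural side and 1 on the fibroblast side (-0.43). Col4a1, the main chain of type IV collagen, was at 1305 CPM in mural-side cells, 389 CPM in fibroblast-side cells and 840 CPM in endothelial cells. Lama4, a laminin chain of vessel walls, was at 853 and 346 CPM, while Lama2 was at 761 and 962 CPM.

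Some signalling genes differed between the sides. Angpt1, the ligand that steadies vessels through TIE2, was at 812 CPM in mural-side and 172 CPM in fibroblast-side cells, and Vegfd, a lymphatic growth factor, at 0 and 166 CPM. Among 19 genes of TGF-beta and BMP signalling 2 were higher on the fibroblast side and 3 on the mural side (-0.32), near the 11.0% and 10.8% of all genes. The latter included Tgfb2, a TGF-beta ligand, at 68.9 against 263 CPM. Il34, a ligand of the macrophage receptor CSF1R, was at 172 CPM in mural-side cells and had 1 UMI in fibroblast-side cells, while Csf1, the other ligand, was at 155 CPM in fibroblast-side and 22.9 CPM in mural-side cells. The counts rest on 4 UMIs of Csf1 and 30 UMIs of Il34 on the mural side.

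Transcription factors also differed. Of 19 mesenchymal factors tested 7 were higher on the fibroblast side and 5 on the mural side (0.37). The list includes Tcf21, which assigned cells to the fibroblast side, so its direction was set by the split. Tbx2, Tbx4 and Tbx5, T-box factors of lung mesenchyme, were at 749.5, 652 and 498 CPM in mural-side cells against 30.4, 38.5 and 41.9 CPM in fibroblast-side cells. Osr1 and Meox2 had 0 UMIs on the mural side and 228 and 79.1 CPM on the fibroblast side. Prrx1, a homeobox factor of connective tissue, was at 45.8 and 373 CPM. Myocd, the coactivator of smooth muscle genes, was at 120 CPM on the mural side and 1.35 CPM on the fibroblast side.

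Against endothelial cells of the same library, fibroblasts and mural cells together had 2097 of 11703 genes at least 2-fold higher (17.9%) and 1920 at most 0.5-fold (16.4%). With the interval rule there were 2088 (17.8%) and 1844 (15.8%). The highest were C4b, a complement protein, at 373 against 0.913 CPM, Serpinf1, an inhibitor of vessel growth, at 939 against 3.96 CPM, and Ccl11. Penk, a precursor of enkephalins, had 235 UMIs against 1, a ratio of 861 (153 to 34164). The lowest apart from Ptprb of the rule were the endothelial genes Cyyr1, Cldn5, Clic5 and Adgrl4. Cldn5, a tight junction protein, was at 5.58 against 3020 CPM. All 10 complement genes tested were higher in fibroblasts and mural cells. So were all 6 fibrillar collagens, of which Col1a1, Col1a2 and Col3a1 chose the cells, and 3 of 12 pericyte genes were higher and 1 lower. Pdgfrb and Notch3 of the pericyte list also chose the cells, so their levels here are a description. The median log2 ratio over all genes tested was 0.013.

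A clustering of the 316 cells of both libraries on 2000 variable genes gave 8 clusters, which describe how the cells varied and are no test. Cluster 0, with 8 GFI1 KO and 76 GFI1 WT cells, held fibroblast-side cells apart from 1 unresolved cell. Its leading genes were those of mesothelium, the lining of the lung surface, such as Upk3b and Msln, although these came from a few cells. In GFI1 WT fibroblast-side cells 5 cells with at least 3 mesothelial markers held 92.2% of that list's UMIs, and in the GFI1 KO library 1 cell held all 26. Clusters 2 to 6 shared the adventitial genes and were not given a name.

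Cluster 1, with 1 GFI1 KO and 50 GFI1 WT cells, was myofibroblast- or peribronchial-like, with 9 of 10 markers of that list raised at least 1.5-fold over the other cells, besides 9 of 12 smooth muscle markers. Hhip was at 7050 CPM and Cdh4, a cadherin, at 1475 CPM. The rule placed its GFI1 WT cells on all sides, with 20 mural-side, 21 unresolved and 9 fibroblast-side. These markers also define the cluster, so that their levels describe it and do not test it.

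Cluster 7, with 2 GFI1 KO and 18 GFI1 WT cells, was pericyte-like and wholly mural-side, with 10 of 12 pericyte markers raised, besides 9 of 12 smooth muscle and 7 of 9 endothelial markers. Trpc6 was at 2711 CPM, Adcy8 at 3209 CPM and Kcnq5 at 10406 CPM. The endothelial list summed to 267 CPM here and to 15764 CPM in endothelial cells. The 39 mural-side cells of the GFI1 WT library thus lay in 2 main groups, 18 in this cluster and 20 in the Hhip-rich cluster 1, with 1 in cluster 2. The level of a gene on the mural side is a mean over both.

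Other clusters were led by genes of other cells or of a state. Cluster 2 (3 GFI1 KO and 40 GFI1 WT cells) was led by S100a9 and S100a8, alarmins of neutrophils, with 5 of 7 neutrophil markers raised. Cluster 5 (2 and 26 cells) was led by Gzma, a granzyme of lymphocytes, with Pi16 at 6214 CPM. Cluster 4 (2 and 27 cells) had the lowest depth, at a median of 1812 UMIs under the GFI1 WT label, and was led by Rbp4 and Plac9. Cluster 3 (0 and 39 cells) was led by Angptl1, Tnfaip6 and Lpl. Cluster 6 (0 and 22 cells) was led by the T-box factor Tbx20, with Apoe, a lipid carrier, at 11457 CPM. In the GFI1 WT fibroblast-side cells 2 cells with at least 3 neutrophil markers held 89.5% of the neutrophil list's UMIs and 4 cells held 90.8% of those of T and NK cells. The part of such cells in the clusters was not tested.

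**Figure D4:**
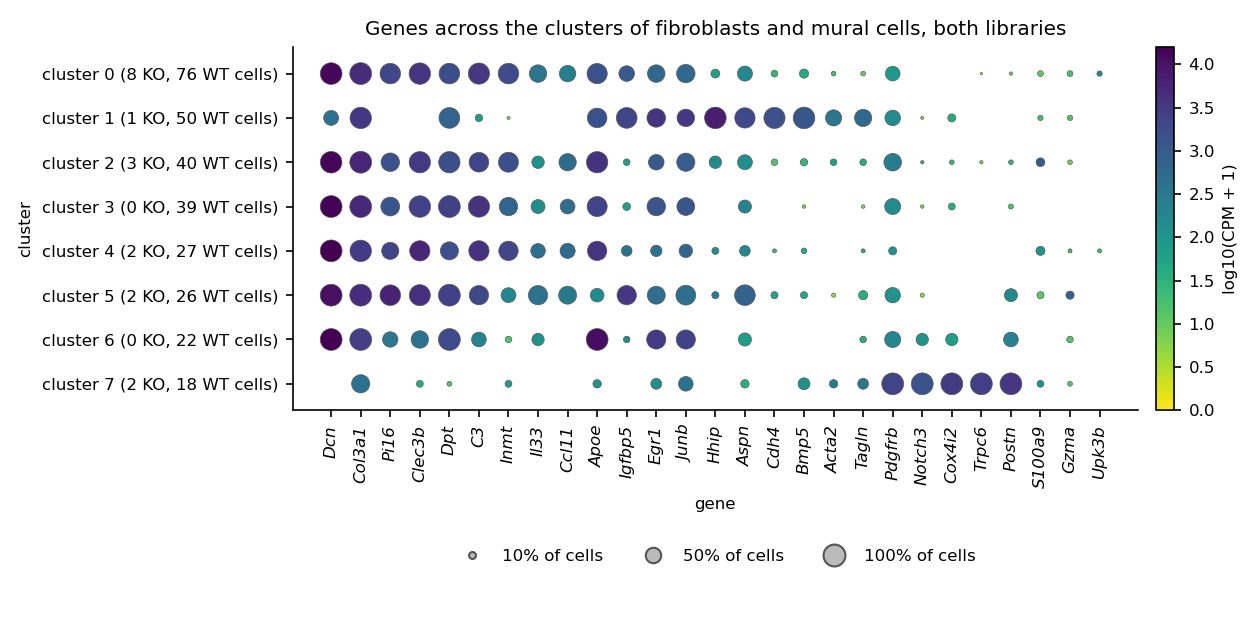
Genes (x axis) in the 8 clusters of fibroblasts and mural cells of both libraries (y axis, with cell numbers), with the summed level as colour (log10 of CPM + 1) and the share of cells with a UMI as dot size. Hhip, Aspn and Cdh4 stand out in cluster 1, Pdgfrb, Cox4i2 and Trpc6 in cluster 7, and Apoe in cluster 6, while Dcn is shared by clusters 0 and 2 to 6 and Egr1 is highest in clusters 1 and 6.

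The fibroblast-side cells of the GFI1 KO library were then compared with those of the GFI1 WT library, 14 cells with 89493 UMIs against 230 cells with 1479818 UMIs. Sparcl1 was higher and Apoe and 10 of 17 immediate-early genes were lower under the GFI1 KO label, while no adventitial or fibrillar collagen gene passed the interval rule. Of 7814 genes with at least 30 UMIs in the 2 sums, 451 were at least 2-fold higher (5.77%) and 1339 at most 0.5-fold (17.1%), of which many rest on a few UMIs in 14 cells. With the interval rule 186 genes were higher (2.38%) and 194 lower (2.48%). The median log2 ratio was 0.012, with genes at 0 set at their bound from 3 UMIs. Over all 18 and 298 fibroblasts and mural cells, 426 of 8595 genes were at least 2-fold higher (4.96%) and 1477 at most 0.5-fold (17.2%), or 191 (2.22%) and 225 (2.62%) with the interval rule. The mural-side cells were not compared, since the GFI1 KO library had 2.

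None of the 12 adventitial genes and none of the 6 fibrillar collagen genes tested passed the interval rule in either direction. Dcn, Col1a1, Col1a2 and Col3a1 among them chose the cells in both libraries, and with 2.38% and 2.48% of all genes passing, few calls in lists this short are no result about them. Their median log2 ratios were 0.031 and 0.097. Of 16 elastic-fibre genes 1 was higher, Fbn1 with a ratio of 2.04 (1.76 to 2.35), a call that is lost without the top cell of each library, at 1769 and 1155 CPM. Of 10 complement genes 1 was lower. Of 12 other collagen genes 2 were lower and none higher by the interval rule, beside the 2.48% and 2.38% of all genes. At most 0.5-fold were 6 of 12, beside 17.1% of all genes, and the median log2 ratio was -0.43. The difference of this short list from all genes was not tested. Col15a1, a collagen of basement membrane zones, was at 156 CPM in GFI1 KO and 320 CPM in GFI1 WT cells (ratio 0.488, 0.265 to 0.828). It rests on 14 UMIs in 5 GFI1 KO cells. Col16a1 had 1 UMI and 99 UMIs (0.167, 0.00419 to 0.952). Gene levels alike by this rule still leave room for differences smaller than 2-fold, and the ratio for Pi16, as an example, was 1.06 (0.924 to 1.21).

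Sparcl1, a matricellular relative of Sparc, was the clearest gene higher under the GFI1 KO label. It was at 2447 CPM in GFI1 KO and 767 CPM in GFI1 WT fibroblast-side cells, a ratio of 3.19 (2.75 to 3.69). It was seen in 14 of 14 and 174 of 230 cells, with medians of 12.7 and 5.18 UMIs per 10000. The cell with the most UMIs held 30.1% of the GFI1 KO total, and the level without it was 1934 CPM. In the fibroblast-side cells of cluster 0 alone, 8 GFI1 KO and 75 GFI1 WT cells, the levels were 3360 and 1163 CPM (ratio 2.89, 2.42 to 3.43). In endothelial cells the ratio was 2.60, while in all cells outside the class Sparcl1 was lower under the GFI1 KO label, at 3.88 against 29.5 CPM. Trabd2b, a protease that acts on Wnt proteins, was at 480 and 157 CPM (3.05, 2.15 to 4.24), seen in 11 of 14 cells, and at a ratio of 3.30 in cluster 0.

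Some other genes of this end rested on 1 or 2 cells. All 19 GFI1 KO UMIs of Grip1 (ratio 6.83, 3.78 to 11.9) came from 1 cell, which also showed 5 of 8 mesothelial markers. All 25 UMIs of Ccn5 (5.17, 3.16 to 8.18) came from another cell, and 65.4% of the Dio2 UMIs (3.84, 2.40 to 5.92) from 1 of 2 cells. Has2os, an antisense RNA of a hyaluronan synthase gene (4.88, 2.71 to 8.37), was seen in 7 of 14 GFI1 KO and 34 of 230 GFI1 WT cells, with 22.2% of its GFI1 KO UMIs in 1 cell. Cmah (4.13, 2.53 to 6.52) and Klhl29 (4.67, 2.32 to 8.80) were seen in 5 GFI1 KO cells each and Ripk2 (5.09, 1.99 to 11.6) in 6. Within cluster 0 the ratio was 6.18 (2.67 to 13.5) for Has2os, 5.62 (2.08 to 13.9) for Klhl29 and 5.62 (0.909 to 26.3) for Ripk2, while Cmah was at 0.642 (0.0748 to 2.50). For the antisense gene reads of the partner gene cannot be told apart unless strand was used in counting, which is not given in the sources used here.

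Lyz2, the lysozyme of macrophages, was at 268 CPM in GFI1 KO and 68.3 CPM in GFI1 WT fibroblast-side cells (3.93, 2.41 to 6.18). It was also higher in cells that should lack it, with 336 and 106 CPM in B cells, and in all cells outside the class, with 16265 and 5582 CPM. After thinning, Lyz2 was seen in 21.4% of GFI1 KO fibroblast-side cells and 16.2% of B cells of that library, whose median depth was 3998 UMIs (71.4% and 46.4% unthinned), and in 8.04% and 7.01% under the GFI1 WT label (33.5% and 27.4% unthinned). Of the 24 Lyz2 UMIs in GFI1 KO fibroblast-side cells 33.3% were in 1 cell, and 2 of the 14 cells showed at least 3 monocyte and macrophage markers and held 60.0% of that list's UMIs. The part of free RNA and of such cells in the Lyz2 difference was not tested.

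**Figure D5:**
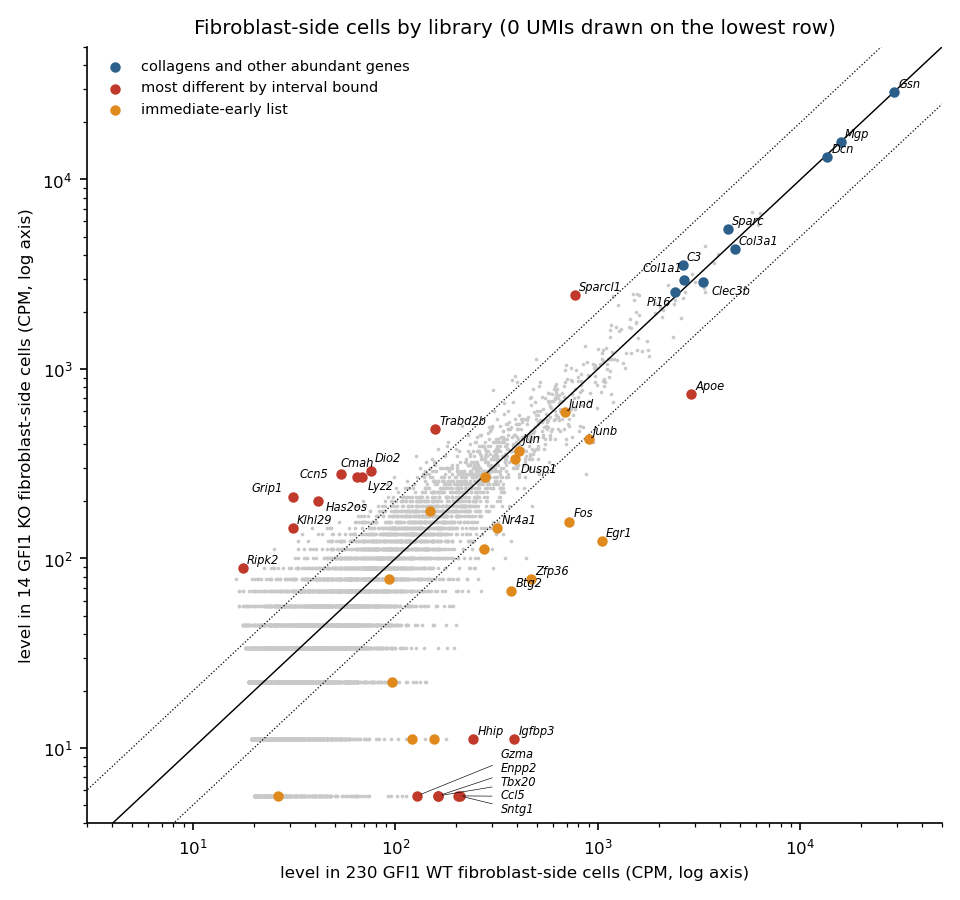
Level of each tested gene in GFI1 KO (y axis) against GFI1 WT (x axis) fibroblast-side cells, in CPM on log axes, with the line of equal levels drawn solid and dotted 2-fold lines; genes with 0 GFI1 KO UMIs are drawn on the lowest row, abundant genes are blue, the genes most different by interval bound red and immediate-early genes orange. Gsn and Dcn lie near the line, as does Mgp with 1 cell that holds 42.9% of its GFI1 KO UMIs, Sparcl1 lies above it at 2447 against 767 CPM, and Egr1, Fos, Apoe and Igfbp3 lie below it.

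Immediate-early genes, which cells switch on within minutes of a stimulus or of handling, were lower in part under the GFI1 KO label. By the interval rule 10 of 17 genes tested were lower and none higher, beside 2.48% and 2.38% of all genes. The median log2 ratio was -1.13, with summed levels of 2972 and 6494 CPM. Egr1, a zinc-finger factor, was at 123 CPM in GFI1 KO and 1044 CPM in GFI1 WT cells (ratio 0.118, 0.0586 to 0.211), seen in 5 of 14 and 142 of 230 cells. Zfp36, which destabilises cytokine mRNA, was at 78.2 and 467 CPM (0.168, 0.0671 to 0.347). Fos was at 156 and 720 CPM, while Jun was at 369 and 405 CPM and Jund at 592 and 689 CPM.

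The spread of these genes between cells was wide. The list ranged from 0 to 620 UMIs per 10000 over the 230 GFI1 WT cells with a median of 34.7, and from 5.70 to 62.4 over the 14 GFI1 KO cells with a median of 30.5. The medians were thus close, and the upper quartile of the GFI1 WT cells, 66.1, lay above the highest GFI1 KO cell. Within cluster 0 the list was at 3340 and 4837 CPM (ratio 0.691, 0.587 to 0.808). There 4 of 16 genes tested were lower, Egr1, Zfp36, Btg2 and Socs3, and 1 was higher, Hspa1a, beside 2.93% and 3.32% of all genes. Fos was at a ratio of 0.604 (0.308 to 1.08) in the cluster and 0.217 over all fibroblast-side cells. Nr4a1, a nuclear receptor, was at 0.488 (0.193 to 1.03) in the cluster and 0.456 (0.241 to 0.788) over all fibroblast-side cells. The ratio of Nr4a1 was thus close to its value over all these cells, and its interval within the cluster, from 7 GFI1 KO UMIs against 13, was wider and held 1. In endothelial cells 2 of 16 genes tested were higher and 4 lower, beside 2.16% and 3.87% of all genes, with sums of 6182 and 6464 CPM. In all cells outside the class 1 of 17 was higher and none lower, beside 3.19% and 24.0% of all genes, with 8173 and 7071 CPM. Egr1 itself was lower in endothelial cells too, at 28.1 against 211 CPM (0.133, 0.0489 to 0.291), as was Fos at 84.4 against 208 CPM (0.406, 0.240 to 0.643). Whether dissociation or the time to sorting differed between the libraries was not tested.

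Apoe was at 737 CPM in GFI1 KO and 2893 CPM in GFI1 WT fibroblast-side cells (0.255, 0.197 to 0.325), seen in 8 of 14 and 192 of 230 cells. In cluster 0 it was at 540.1 and 1546 CPM (0.349, 0.229 to 0.512). In endothelial cells it was also lower, at 14.1 and 44.4 CPM (0.317, 0.0649 to 0.935, from 3 GFI1 KO UMIs), while in all cells outside the class it went the other way, at 977 and 332 CPM. The Apoe-rich cluster 6 had no GFI1 KO cell among 22. Tbx20, its leading gene, had 0 UMIs in GFI1 KO and 240 UMIs in 31 GFI1 WT fibroblast-side cells (ratio 0, 0 to 0.256).

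Igfbp3, a carrier of insulin-like growth factors, had 1 UMI in 1 of 14 GFI1 KO cells and 571 UMIs in 80 of 230 GFI1 WT cells, with levels of 11.2 and 386 CPM (ratio 0.0290, 0.000732 to 0.162). Hhip had 1 UMI and 358 UMIs, at 11.2 and 242 CPM (0.0462, 0.00117 to 0.259), and the Hhip-rich cluster 1 held no fibroblast-side GFI1 KO cell. Sntg1, a syntrophin, had 0 UMIs in GFI1 KO cells and was at 207 CPM in GFI1 WT cells (ratio 0, 0 to 0.200). Enpp2, which encodes autotaxin, had 0 UMIs and 162 CPM (0, 0 to 0.256). The GFI1 WT UMIs lay in 41 of 230 cells for Sntg1 and in 52 for Enpp2. Ccl5 and Gzma, genes of T and NK cells, had 0 UMIs in GFI1 KO cells and 205 and 128 CPM in GFI1 WT cells. Among GFI1 WT fibroblast-side cells 37.6% of the Ccl5 UMIs and 45.0% of the Gzma UMIs were in 1 cell. Both genes were lower under the GFI1 KO label in other classes too. In B cells Ccl5 was at 69.5 and 458 CPM and Gzma at 92.9 and 230 CPM. In endothelial cells the levels were 4.69 and 199 CPM and 0 and 135 CPM. Outside the class they were 389 and 1350 CPM and 159 and 718 CPM. With 14 cells, a cluster that takes a small share of the GFI1 WT cells can be missed under the GFI1 KO label by sampling alone, which was not tested.

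Mitotic RNA was seen in few cells. The UMIs of Ube2c and Cdk1, 50 and 22 in all GFI1 WT fibroblast-side cells, lay in 1 cell, and Top2a had 45 of 47 UMIs in 1 cell. Pcna, a clamp of DNA replication and repair, was seen in 62 of 230 GFI1 WT and 3 of 14 GFI1 KO cells. In the GFI1 KO fibroblast-side cells Mki67 and Top2a had 0 UMIs, where 3 UMIs would correspond to 33.5 CPM. MHC class II genes summed to 112 CPM in GFI1 WT fibroblast-side cells against 2842 CPM in endothelial cells, and interferon-stimulated genes to 3651 CPM, led by Ifitm3. Of the 13 interferon-stimulated genes tested between the libraries none was higher and 1 was lower under the GFI1 KO label. Of 19 TGF-beta and BMP genes tested 3 were higher and 3 lower. Over all genes the shares were 2.38% and 2.48%, and the difference of these short lists from all genes was not tested.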

How the data were processed

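Raw UMI counts of genes and of antibody tags in called cells were deposited as 1 matrix per library. The submitters' processing notes name Cell Ranger 9.0.1 and the builds GRCm39 and mm39. The study's methods state 2 samples per genotype; 1 of each was analysed here. From the counts, cells were filtered and chosen as described above, and 9538 of 33696 genes (ribosomal, mitochondrial and Gm-) were left out of sums, as in the study's methods. UMIs were summed per library and class. Shares have exact Clopper-Pearson intervals, levels exact Poisson and ratios exact conditional binomial ones; a count of 0 was bounded by 3 UMIs. Cells are not replicates, so no p-value was computed. Clusters followed the study's settings (50 components, 15 neighbours, resolution 0.8) with scanpy 1.11.5, Python 3.11.15, numpy 2.4.6, scipy 1.17.1 and, for loess, R 4.3.3. Doublets were kept; Scrublet called 346 cells (3.30%) under the GFI1 KO and 1137 (5.88%) under the GFI1 WT label, of which 0 and 9 were fibroblasts or mural cells. Ratios were tested on simulated Poisson counts drawn from summed UMIs. These had no spread between cells, so genes with their UMIs in a few cells were not covered.

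The cells, gene lists and comparisons were chosen with earlier results of these data known. The rule for named genes took the genes that chose the cells, Gfi1 and Gfi1b, up to 5 most counted genes of each list, and the 10 highest and 10 lowest genes per contrast by the interval bound nearer to 1. Some results that the rule would name are not reported here. Genes outside it, among them those shown for clusters, signalling and transcription factors, were named after their values were seen. The interval rule for calls, the removal of cells with markers of another lineage, the count of cells turned away, the values per cell and the comparison within cluster 0 were added after seeing the data. Alternatives varied the number of rule genes, the genes required at 0, the mitochondrial limit, doublets, the division into sides, thinning to 1000 UMIs, the UMIs that levels were divided by and the minimum of 30 UMIs.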

Additional observations from a re-analysis of the deposited data

How the results depend on the processing

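Over 68 results and 12 settings, 96 values of the main shares and counts stayed within the counting interval or 1.5 times the count and 12 moved; of the single genes and levels 489 stayed, 61 moved, and 1 changed sign through its floor. The GFI1 WT share of fibroblasts and mural cells was 1.20% when at least 5 of the 9 genes were required and 1.15% when Ptprc, Pecam1, Cdh5, S100a8 and S100a9 also had to be at 0. With at least 5 genes the fibroblast side took 83.6% and the mural side 9.05% of GFI1 WT cells. With at least 100 UMIs per gene, 660 genes were higher and 356 lower on the fibroblast side, and 82 were higher and 294 lower under the GFI1 KO label; with at least 10 UMIs the numbers were 2369, 1568, 891 and 2602. These counts follow from the number of genes tested. The log2 ratio of Ccl5, with the 0 GFI1 KO UMIs set to 3, was 0.043 when the further genes were required at 0, since the GFI1 WT level was then below the floor of 3 UMIs, so no direction can be read from it. No paired analysis was possible because each genotype had 1 library. In all, 30 GFI1 WT and 4 GFI1 KO cells had at least 3 markers of another lineage, and leaving them out moved none of the main shares and counts but 10 of the single genes and levels, among them Kcnq5 between the sides and Sntg1 and Enpp2 between the libraries, none of which changed sign. The number of cells sets the floor, since 3 UMIs are 33.5 CPM in the 14 GFI1 KO fibroblast-side cells and 17.2 CPM in the 39 GFI1 WT mural-side cells.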
